A study of Mus musculus with 12 samples.

Results

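The genes described here are 7 mouse genes of sterol and fatty acid synthesis: Srebf1, Srebf2, Insig1, Hmgcs1, Sqle, Fasn and Scd2. They were taken as the rows of the gene count table whose Entrez gene ID maps to these symbols, 7 of 27179 gene IDs, and all 7 passed the filter on low counts that left 13131 genes for testing. Their counts were followed through 12 RNA sequencing libraries of sorted B cells, in 6 groups of 2.

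Srebf1 and Srebf2 encode the sterol regulatory element binding proteins SREBP-1 and SREBP-2, transcription factors that are held in the endoplasmic reticulum membrane when sterols are plentiful and are cut free to enter the nucleus when sterols are scarce. SREBP-2 mainly drives genes of cholesterol synthesis and uptake, and SREBP-1 mainly those of fatty acid synthesis. Insig1 encodes a membrane protein that retains the precursors and promotes degradation of HMG-CoA reductase. Hmgcs1 encodes the cytosolic HMG-CoA synthase at the start of the mevalonate pathway, and Sqle encodes squalene epoxidase, which makes the first oxygenated intermediate of sterol synthesis. Fasn encodes fatty acid synthase, which builds palmitate, and Scd2 encodes a stearoyl-CoA desaturase, which places a double bond in saturated fatty acids. Dividing B cells need lipid for new membranes, and cells that become plasma cells expand the endoplasmic reticulum to secrete antibody.

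All mice were of the C57BL/6 background and were immunised with the hapten-carrier NP-KLH in alum. Germinal centre (GC) B cells, the dividing cells in which antibody genes mutate and are selected, were sorted on day 12 from Myb fl/fl mice without cre (control) and from Myb fl/fl CD23-cre T/+ mice (knockout). Plasmablasts, which secrete antibody, were sorted on day 5 after a boost with NP-KLH in PBS from mice of the same 2 genotypes. In a separate experiment GC B cells were sorted on day 7 from AID-cre T/+ mice (control) and Moz fl/fl AID-cre T/+ mice (knockout). Myb encodes the transcription factor c-Myb, and Moz (gene symbol Kat6a) encodes a histone acetyltransferase. CD23-cre acts in mature B cells before the GC stage and AID-cre in activated B cells. Cre comes with the knockout in the Myb comparisons, so the effects of cre and of the loss of Myb cannot be told apart, while both Moz groups carry cre. PolyA RNA was pooled from 2 to 8 mice for each library, so n = 2 pools in every group, and knockout and control pools of the same number share their experiment dates.

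Upstream sequences are shown for 4 of the genes, because genes of this pathway are known SREBP targets and because these 4 differ in how their levels moved between the cell types. Each is the 250 bases before the RefSeq transcription start in GRCm38.p6, 5′ to 3′ on the gene's own strand, with capitals on matches to 3 motifs searched on both strands: TCACNCCAC (the core of a sterol regulatory element), CCAAT (the CCAAT box, ATTGG when read on the other strand) and CACGTG (the E-box). The regions are chr13:119690101-119690350 (plus strand) for Hmgcs1, chr5:28071162-28071411 (plus strand) for Insig1, chr15:82147019-82147268 (plus strand) for Srebf2 and chr11:120824548-120824797 (minus strand) for Fasn.
Hmgcs1: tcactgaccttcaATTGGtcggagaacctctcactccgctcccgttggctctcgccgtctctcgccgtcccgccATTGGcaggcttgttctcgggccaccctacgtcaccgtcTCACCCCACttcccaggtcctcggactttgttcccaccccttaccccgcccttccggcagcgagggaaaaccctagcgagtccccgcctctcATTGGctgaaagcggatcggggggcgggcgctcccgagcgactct
Insig1: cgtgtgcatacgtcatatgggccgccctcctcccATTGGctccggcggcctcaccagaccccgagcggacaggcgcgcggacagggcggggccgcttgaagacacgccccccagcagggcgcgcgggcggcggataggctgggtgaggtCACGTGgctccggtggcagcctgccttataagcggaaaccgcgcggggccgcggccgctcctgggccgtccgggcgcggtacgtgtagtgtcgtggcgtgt
Srebf2: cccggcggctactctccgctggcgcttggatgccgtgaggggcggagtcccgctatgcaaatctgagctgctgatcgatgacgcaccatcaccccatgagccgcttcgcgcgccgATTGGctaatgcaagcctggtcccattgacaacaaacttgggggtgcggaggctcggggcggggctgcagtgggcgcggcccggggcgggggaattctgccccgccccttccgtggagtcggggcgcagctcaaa
Fasn: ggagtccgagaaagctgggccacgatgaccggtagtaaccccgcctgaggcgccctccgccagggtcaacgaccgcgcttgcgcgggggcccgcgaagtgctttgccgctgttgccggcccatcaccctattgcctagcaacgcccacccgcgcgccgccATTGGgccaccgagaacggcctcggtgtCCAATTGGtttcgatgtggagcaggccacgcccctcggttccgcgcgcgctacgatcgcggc
The Hmgcs1 sequence holds 1 sterol regulatory element core, 137 bases before the start, and 3 CCAAT boxes. Insig1 holds 1 E-box, 101 bases before the start, and 1 CCAAT box. Srebf2 holds 1 CCAAT box, and Fasn holds 3, of which 2 overlap by 2 bases in the run CCAATTGG. The RefSeq table gave a window for 5 of the 7 genes, with 3 windows for Srebf1, and Sqle and Scd2 are named only. Over all 32851 windows of the same length, 1.05% hold the sterol regulatory element core, 33.8% the CCAAT box and 6.02% the E-box. Of 16 sterol synthesis genes with a window, 15 hold a CCAAT box in at least 1 of their windows, 3 an E-box and 1, Hmgcs1, the sterol regulatory element core. A match is a run of letters and not a measured binding site.

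The libraries held 8285934 to 24801297 counts. Immunoglobulin transcripts took 65.0 to 70.0% of counts in plasmablasts and 1.59 to 9.16% in GC B cells, so levels are given as CPM, the counts relative to library size, after trimmed-mean (TMM) scaling between libraries, with scaling factors of 0.392 to 0.450 in plasmablasts and 1.45 to 1.73 in GC B cells. The sorted cells carried their markers: 7 GC B cell markers summed to 975 to 1755 CPM in GC libraries against 37.1 to 48.8 in plasmablast libraries, and 6 plasma cell markers to 924 to 7128 against 104336 to 143177. Summed markers of other cells also differed, in both directions. The 5 naive B cell markers summed to 195 to 539 CPM in the GC libraries against 36.6 to 44.4 in the plasmablast libraries. By edgeR 4 of these 5 were called lower in plasmablasts of each genotype. The 8 T cell markers summed to 5.08 to 26.6 CPM in the GC libraries against 165 to 223 in the plasmablast libraries, the 8 myeloid markers to 11.5 to 44.2 and 40.7 to 91.1, and the 6 markers of NK cells and plasmacytoid dendritic cells to 12.9 to 34.7 and 156 to 337. Single markers of the T cell, myeloid and NK cell lists went both ways. In control plasmablasts 3 of 7 tested T cell markers had higher and 4 lower estimates, with Cd4 and Cd28 called higher by edgeR. For NK cells and plasmacytoid dendritic cells 2 of 5 were higher and 3 lower, with Prf1 and Bst2 called higher. For myeloid cells 5 of 7 were higher and 2 lower, with Csf1r, Adgre1 and Cd68 called higher. The 5 erythroid markers reached at most 2.07 CPM in any library, and Mpo, the granule enzyme of neutrophils, was at 0 in both pools of 4 groups. From the NK cell and plasmacytoid dendritic cell list, Ncr1 was at 0 in every plasmablast pool and Siglech in both knockout plasmablast pools. The T cell marker Cd8a was also at 0 in both knockout plasmablast pools. The sums of these lists set no amount of such cells. The part of these other cells in the differences between plasmablasts and GC B cells was not tested. In bulk libraries fewer cells of a type and less RNA per cell cannot be told apart. Counts over the whole Myb and Kat6a genes did not separate knockout from control GC B cells (Myb at 22.6 and 18.3 unscaled CPM in knockout against 22.8 and 17.3 in control, Kat6a at 104 and 139 in Moz knockout against 130 and 106 in control). In plasmablasts Myb was low, at 1.26 and 1.21 unscaled CPM in knockout against 1.86 and 1.84 in control, without overlap. With the floxed exons not named in the labels, whole-gene counts are no check of the deletion. Pool 1 of the Myb knockout GC B cells is labelled as 2 females and had 67.2 unscaled CPM of the Y-linked gene Ddx3y, so this library goes against its label. Single values without it are given below for Hmgcs1 and Sqle between the knockout cell types and for Scd2 in Myb GC B cells. Elsewhere it is kept in, or enters only the ranges with each pool left out. The fit with the pool number as a block was not repeated without it.

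Between plasmablasts and GC B cells the 7 genes did not move together. The sterol enzyme genes Hmgcs1 and Sqle were 3.18-fold to 5.28-fold lower in plasmablasts in both genotypes, Srebf2 was lower by a smaller amount, Srebf1 and Fasn did not pass the test, and Insig1 and Scd2 were higher in plasmablasts of the control mice. In the Myb control mice 5 of the 7 genes passed the test, 2 higher and 3 lower, against a background of 53.2% of all 13131 genes tested (25% higher and 28.1% lower). In the Myb knockout mice 3 passed, all lower, against 51.6% (24.4% higher and 27.2% lower). With so many genes called, these counts of members are no result of their own, and the sizes and directions carry the description. The test was edgeR's two-sided quasi-likelihood F test with Benjamini-Hochberg adjustment over all genes tested. Plasmablasts and GC B cells share no experiment date, and boost, day and cell type cannot be told apart.

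**Figure D1:**
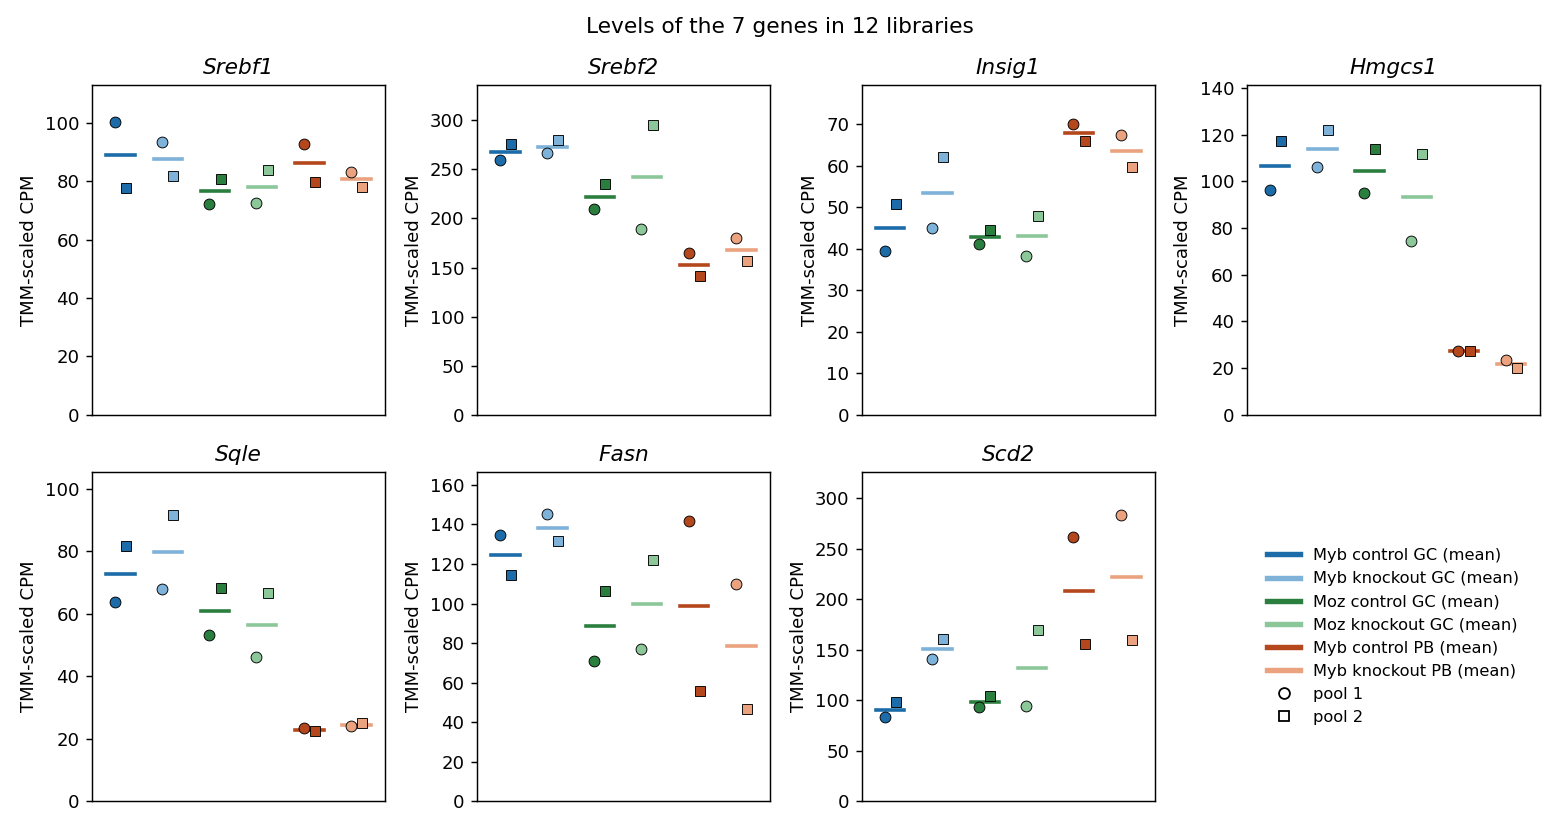
TMM-scaled CPM (vertical axis, from 0) of each of the 7 genes in the 12 libraries, grouped by genotype and cell type along the horizontal axis. Circles are pool 1, squares pool 2 and bars the group mean (n = 2). Hmgcs1 lies between 74.6 and 122 in the 8 GC libraries and between 19.9 and 27.2 in the 4 plasmablast (PB) libraries, while Fasn and Scd2 differ widely between the 2 pools of each plasmablast group.

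Srebf1 (ID 20787, mm10 chr11:60199084-60224186) stood at 100.2 and 77.6 CPM in control GC B cells (pool 1 and pool 2), against 92.8 and 79.7 in control plasmablasts. In the knockout mice it had 93.3 and 81.7 in GC B cells and 83.2 and 77.9 in plasmablasts. The ranges overlapped in both genotypes. The log2 fold change was -0.04 (SE 0.20, edgeR adjusted p = 0.863) in control and -0.12 (SE 0.20, edgeR adjusted p = 0.632) in knockout mice, with 95% intervals of -0.47 to 0.39 and -0.55 to 0.31. Srebf1 shares 114 bases with Rai1, with the strand setting of the counting not given in the sources used here, so a small part of either count may belong to the other gene. Rai1 had 8.63 to 23.0 CPM in the 12 libraries.

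Srebf2 (ID 20788, chr15:82147269-82205379) stood at 259 and 276 CPM in control GC B cells, against 165 and 141 in control plasmablasts. Its levels in knockout mice were 266 and 280 in GC B cells and 180 and 156 in plasmablasts. Every GC pool lay above every plasmablast pool. The difference was 1.75-fold in control (log2 -0.81, SE 0.23, edgeR adjusted p = 0.0122) and 1.63-fold in knockout mice (log2 -0.70, SE 0.23, edgeR adjusted p = 0.025). The control call was lost without control plasmablast pool 2 (edgeR adjusted p = 0.0654). The knockout call was lost with each of its 4 pools left out in turn (edgeR adjusted p from 0.0507 to 0.104) and when the compared groups were fitted alone (edgeR adjusted p = 0.076). Over all settings but library totals alone, given below, the log2 fold change stayed between -0.93 and -0.59.

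Insig1 (ID 231070, chr5:28071412-28078662) went the other way in the control mice, at 39.4 and 50.8 CPM in GC B cells and 70.0 and 66.0 in plasmablasts, with no overlap. In the knockout mice it had 44.9 and 62.2 in GC B cells and 67.5 and 59.7 in plasmablasts, and here the ranges overlapped. Over its whole span of 7251 bases Insig1 overlaps Gm35223, which is not among the counted genes. With the strand setting not given, the Insig1 counts may hold reads of Gm35223. Insig1 was 1.51-fold higher in control plasmablasts (log2 0.59, SE 0.22, edgeR adjusted p = 0.0368), and did not pass in the knockout mice (log2 0.25, SE 0.22, edgeR adjusted p = 0.356). The control call was lost with no filter on low counts (edgeR adjusted p = 0.101) and without control GC pool 1, control plasmablast pool 1 or control plasmablast pool 2 (edgeR adjusted p from 0.0838 to 0.233).

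Hmgcs1 (ID 208715, chr13:119690351-119708260) stood at 96.2 and 117 CPM in control GC B cells, against 27.1 and 27.2 in control plasmablasts. Knockout pools had 106 and 122 in GC B cells and 23.4 and 19.9 in plasmablasts. No plasmablast pool came near a GC pool. Hmgcs1 was 3.93-fold lower in plasmablasts of control mice (log2 -1.97, SE 0.24, edgeR adjusted p = 2.88e-05) and 5.28-fold lower in those of knockout mice (log2 -2.40, SE 0.24, edgeR adjusted p = 8.11e-06). The plasmablast values rest on 519 counts in control and 353 in knockout pools.

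Sqle (ID 20775, chr15:59315092-59331193) stood at 63.9 and 81.7 CPM in control GC B cells, against 23.4 and 22.5 in control plasmablasts. Knockout pools had 68.1 and 91.5 in GC B cells and 24.1 and 25.0 in plasmablasts. As with Hmgcs1, the cell types did not overlap. Sqle was 3.18-fold lower in control plasmablasts (log2 -1.67, SE 0.25, edgeR adjusted p = 1.47e-04) and 3.24-fold lower in knockout plasmablasts (log2 -1.70, SE 0.25, edgeR adjusted p = 1.38e-04). The calls of Hmgcs1 and Sqle held under every alternative setting run, including each pool left out in turn, with adjusted p-values of at most 0.00186. Without knockout GC pool 1, which goes against its sex label, the knockout values were -2.51 for Hmgcs1 (edgeR adjusted p = 2.69e-05) and -1.91 for Sqle (edgeR adjusted p = 1.68e-04).

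Fasn (ID 14104, chr11:120805958-120825166) stood at 135 and 115 CPM in control GC B cells, against 142 and 55.6 in control plasmablasts. Knockout pools had 145 and 131 in GC B cells and 110.05 and 46.7 in plasmablasts. In both genotypes plasmablast pool 2 was far below plasmablast pool 1. Fasn did not pass in control (log2 -0.33, SE 0.45, edgeR adjusted p = 0.556) or knockout mice (log2 -0.82, SE 0.46, edgeR adjusted p = 0.154). With the pool number within each experiment as a block, it was lower in plasmablasts in control (log2 -0.48, edgeR adjusted p = 0.00175) and knockout mice (log2 -0.95, edgeR adjusted p = 9.93e-06), where 67.8% and 66.7% of all genes were called. Plasmablast and GC pools share no date, so the block pairs no samples across this comparison, and it takes the spread between the pools out of the error. In knockout mice Fasn was also called lower with no filter on low counts and without knockout plasmablast pool 1 (log2 -1.54). On library totals alone, given below, Fasn was called lower in both genotypes. Over all other settings, DESeq2 and limma-voom included, its log2 fold change in control mice ran from -1.18 to 0.16. In knockout mice it ran from -1.54 to -0.35.

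Scd2 (ID 20250, chr19:44293676-44306864) stood at 83.2 and 98.6 CPM in control GC B cells, against 262 and 156 in control plasmablasts. Knockout pools had 141 and 161 in GC B cells and 284 and 160.2 in plasmablasts. The control groups did not overlap, whereas knockout plasmablast pool 2 lay within the range of the knockout GC pools. Scd2 was 2.30-fold higher in control plasmablasts (log2 1.20, SE 0.35, edgeR adjusted p = 0.0122), and did not pass in knockout mice (log2 0.55, SE 0.34, edgeR adjusted p = 0.197). With the block it was called higher there (log2 0.50, edgeR adjusted p = 0.00971), but the block here too pairs no plasmablast pool with a GC pool. On library totals alone, given below, it was called lower in knockout mice. Over all settings but that one its knockout log2 fold change ran from 0.11 to 0.89. The control call was lost without control GC pool 1 (edgeR adjusted p = 0.073) or control plasmablast pool 1 (log2 0.77, edgeR adjusted p = 0.119).

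These directions hold relative to the scaling. Dividing by the library total alone, which the immunoglobulin transcripts fill in plasmablasts, moved the median of all genes from -0.17 to -2.04 in control and -2.21 in knockout mice. On that scale Insig1 fell below 0 (log2 -1.28 and -1.79), as did Scd2 (log2 -0.66, adjusted p = 0.106, and -1.49, adjusted p = 0.00258 by edgeR). Srebf1 (-1.93 and -2.18) and Fasn (-2.18 and -2.87) were called lower on that scale in both genotypes, and the share of called genes that were higher went from 47.1% to 10.1% in control and from 47.3% to 7.84% in knockout mice. Hmgcs1, Sqle and Srebf2 were lower on either scale.

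The wider sterol pathway moved with Hmgcs1 and Sqle. Of 21 sterol synthesis enzymes, all of them tested, 15 were lower in plasmablasts and 2 higher in each genotype, with a median log2 fold change of -1.39 in control and -1.43 in knockout mice, against -0.17 over all genes tested. Hmgcs1 and Sqle are among the 15. As background, 28.1% of all genes were lower and 25% higher in control mice, and 27.2% and 24.4% in knockout mice. This list and those below were chosen with earlier results of these data known, and their counts and medians are descriptions. The named enzymes other than Hmgcs1 and Sqle, with values for control mice, begin with Acat2, which joins acetyl-CoA units, at log2 -2.68 (SE 0.30). The kinase gene Pmvk was at -2.34 (SE 0.24), the isomerase gene Idi1 at -2.81 (SE 0.64), and Hsd17b7, a late enzyme of the sterol branch, at -2.61 (SE 0.27). Idi1 was low in both cell types, at 5.09 CPM in control GC B cells and 0.682 in control plasmablasts. Going against the list, Ebp, a sterol isomerase, was 3.70-fold higher in control plasmablasts (22.7 ± 4.26 to 84.0 ± 3.79 CPM, SD, n = 2) and 3.70-fold higher in knockout plasmablasts (27.4 ± 5.62 to 101 ± 24.8 CPM). Nsdhl, a sterol dehydrogenase, was 1.52-fold higher in control plasmablasts (edgeR adjusted p = 0.0177) but did not keep its call under every setting. On library totals alone 20 of the 21 enzymes were called lower in each genotype and 0 higher, and over the other settings 12 to 17 were called lower in control and 12 to 16 in knockout mice.

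**Figure D2:**
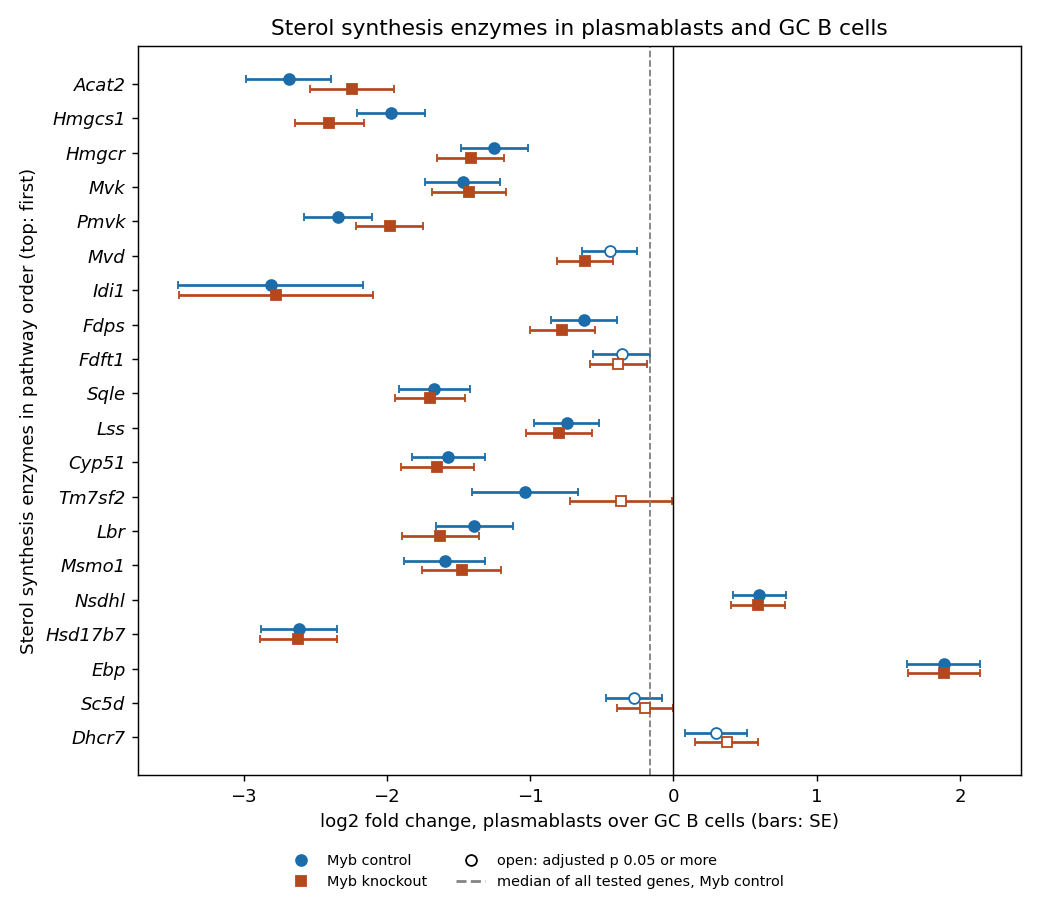
Log2 fold change of plasmablasts over GC B cells (horizontal axis, bars are standard errors) for 20 of the 21 sterol synthesis enzymes in pathway order, in Myb control (circles) and Myb knockout mice (squares). Filled symbols passed the test at an adjusted p under 0.05. Symbols lie left of 0 for 17 of these enzymes in each genotype, and Ebp, Nsdhl and Dhcr7 lie to the right.

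A list of 15 genes held Srebf1, Srebf2 and genes that hold, escort, cut or degrade the SREBP precursors and their partners. Of these, 7 were higher and 3 lower in control plasmablasts (median log2 0.46), and 8 were higher and 2 lower in knockout plasmablasts (median 0.63). Srebf1, Srebf2 and Insig1 are counted here, with Insig1 among the higher genes in control mice and Srebf2 among the lower in both genotypes. Over all genes 25% were higher and 28.1% lower in control mice, and 24.4% and 27.2% in knockout mice. Among those higher in control mice were Aup1 (log2 1.72, SE 0.20), Erlin2 (1.21, SE 0.22), Ubxn8 (1.00, SE 0.24) and Insig2, the paralog of Insig1 (1.15, SE 0.18). Insig2 went from 17.7 ± 2.48 to 39.1 ± 0.672 CPM in control mice (SD, n = 2). Erlin1 (log2 -1.76, SE 0.23) and Spring1 (-0.66, SE 0.21) were lower along with Srebf2. Aup1, Erlin2 and Ubxn8 also serve protein degradation at the endoplasmic reticulum.

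Genes of sterol handling outside synthesis were split in direction. Of 8 tested genes of sterol uptake and transport (10 listed), 4 were higher and 4 lower in plasmablasts of each genotype. The background for this list and the next was 25% of all genes higher and 28.1% lower in control mice. In knockout mice it was 24.4% and 27.2%. In control mice Scarb1, a lipoprotein receptor (log2 -3.04, SE 0.27), Stard4, a sterol carrier (-2.29, SE 0.42), and Lrp8 (-1.18, SE 0.36) were among those lower. The genes of lysosomal cholesterol release were higher: Npc2 by 8.84-fold (47.6 ± 9.16 to 421 ± 88.3 CPM), Npc1 at log2 1.98 (SE 0.24) and the acid lipase gene Lipa at 1.76 (SE 0.30), as was the sterol carrier gene Osbp at 1.44 (SE 0.21). Of 10 tested genes of the oxysterol receptor LXR, sterol efflux and esterification (12 listed), 5 were higher and 2 lower in control mice and 5 and 0 in knockout mice. The efflux pump gene Abca1 was 4.70-fold higher in control plasmablasts (22.7 ± 9.51 to 107 ± 24.2 CPM), with Abcg1 (log2 2.78, SE 0.47), Rxra (2.91, SE 0.42) and Nr1h3, which encodes LXR alpha (2.37, SE 0.56). Cyp27a1 (log2 -1.64, SE 0.44) and Soat1 (-0.98, SE 0.22) were lower. Abca1, Lipa and Npc2 are also abundant in myeloid cells, whose 8 markers summed to 40.7 to 91.1 CPM in the plasmablast libraries, and the part of such cells in these values was not tested. Soat2, which esterifies cholesterol, had 2 counts in the control GC pools together and 60 in the control plasmablast pools.

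Of 17 tested genes of fatty acid synthesis, elongation and desaturation (21 listed), 5 were higher and 5 lower in control plasmablasts and 4 and 7 in knockout plasmablasts, where 25% and 28.1% of all genes in control and 24.4% and 27.2% in knockout mice were higher and lower. Fasn and Scd2 are counted here, with Scd2 among the 5 higher in control mice. The control counts are near that background. Scd1, the paralog of Scd2 with the same activity, had 284 and 370 CPM in control GC B cells and 97.2 and 84.0 in control plasmablasts, and 263 and 314 against 65.3 and 45.6 in the knockout mice. It was 3.61-fold lower in control plasmablasts (log2 -1.85, SE 0.28, edgeR adjusted p = 1.60e-04), in the opposite direction to Scd2. Reads that fit both genes could be split between them by the counting, so their exact levels are uncertain. The other paralogs were nearly absent, with at most 6 counts of Scd3 and 7 of Scd4 in any library. Acaca, the carboxylase that feeds Fasn (log2 -1.67, SE 0.26), Mid1ip1, which activates that carboxylase (-1.87, SE 0.29), Hsd17b12 (-1.14, SE 0.25) and Elovl6 (6.91 CPM in GC B cells and 3.42 in plasmablasts) were lower in control plasmablasts, and Acss2, an acetyl-CoA synthetase (1.71, SE 0.24), Elovl5 (1.04, SE 0.20) and Tecr (0.57, SE 0.22) were higher. Me1, the malic enzyme, had 1 count in the control GC pools together and 21 in control plasmablasts. Of 16 genes of glycerolipid and phosphatidylcholine synthesis, 6 were higher and 3 lower in control plasmablasts, among them Chpt1 (log2 2.76, SE 0.30), Lpin1 (2.35, SE 0.43), Pcyt1a (2.04, SE 0.25), Dgat1 (1.71, SE 0.33) and Agpat2 (1.64, SE 0.38) on the higher side and Pcyt2 (-1.15, SE 0.20) on the lower side. Pcyt1b had 320 counts in the control GC pools and 0 in the control plasmablast pools, and Chkb 0.637 against 0.0449 CPM. Among the list genes that the naming rule chose, the control calls of 8 (Spring1, Ubxn8, Nsdhl, Tecr, Elovl6, Lrp8, Cyp27a1 and Chkb) were lost under at least 1 alternative setting or without a pool (adjusted p from 0.0506 to 0.327), and in knockout mice those of 5 (Ubxn8, Nsdhl, Tecr, Lrp8 and Agpat2, adjusted p from 0.0507 to 0.138). Of the list genes chosen by that rule in control mice 25 were higher and 21 lower, and in knockout mice those 25 and 17 of the 21 passed in the same direction, with Spring1, Cyp27a1, Soat1 and Chkb short of the limit. On library totals alone 13 of the 25 higher genes lay below 0 in control and 17 in knockout mice, and 0 of the lower genes lay above 0.

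In the knockout comparisons the question was whether loss of Myb or Moz moved these genes. In Myb knockout against control GC B cells 0 of the 7 genes passed edgeR's test (0 also at an unadjusted p under 0.05, and 0 by DESeq2 and limma-voom), against 34 of 13131 genes or 0.259%. The estimates ran from -0.02 for Srebf1 to 0.73 for Scd2. Scd2 stood at 141 and 161 CPM in the knockout pools against 83.2 and 98.6 in the control pools, without overlap and by 1.70-fold and 1.63-fold within the 2 same-date pairs. Its log2 fold change was 0.73 (SE 0.34, 95% interval -0.02 to 1.49, edgeR adjusted p = 0.91). With the shared dates as a block Scd2 rose (log2 0.74, SE 0.15, edgeR adjusted p = 0.0235), where 318 genes or 2.42% were called (2.03% higher), and it was the 1 member called. Over all settings its log2 fold change ran from 0.61 to 0.85 and its adjusted p from 0.0235 to 1. Without the knockout pool that goes against its label the log2 fold change was 0.83 (edgeR adjusted p = 0.972). The other 6 genes differed by at most 0.25 in log2 (Insig1, SE 0.21), and Scd1 had a log2 fold change of -0.18 (SE 0.27, edgeR adjusted p = 1).

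The 6 plasma cell markers summed to 1310 and 1841 CPM in knockout GC B cells against 924 and 1474 in control GC B cells. The markers of NK cells and plasmacytoid dendritic cells summed to 21.2 and 29.6 CPM against 12.9 and 13.6, and the T cell markers to 10.1 and 7.26 against 5.59 and 5.08. Other lists were lower in knockout within both pairs. The 5 naive B cell markers summed to 331 and 195 CPM against 388 and 353, and the 7 GC B cell markers to 1108 and 1622 against 1378 and 1755. The myeloid markers went both ways, at 44.2 and 11.5 against 34.4 and 12.9. The part of any of these cells in the Scd2 difference was not tested. Scd2 was 58.2 and 62.3 CPM higher in the knockout pools of the 2 pairs, which is 26.2% and 28.0% of its mean level in knockout plasmablasts. For the 6 plasma cell markers the same shares ran from -0.28% to 7.42%, with Prdm1 at 7.42% and 4.32%, Irf4 at 4.05% and 2.78% and Xbp1 at 1.15% and 1.24%. Jchain was at 0.236% and 0.228%. As the markers differ among themselves, these shares set no amount of admixed plasma cells, whose part in the Scd2 difference was not tested.

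In plasmablasts 0 of the 7 genes passed between Myb knockout and control (0 at an unadjusted p under 0.05 in edgeR, and 0 by DESeq2 and limma-voom), against 5 genes or 0.0381%. With the block 0 passed either (2 at an unadjusted p under 0.05), against 76 genes or 0.579%. Fasn was at log2 -0.34 (SE 0.45) and Hmgcs1 at -0.33 (SE 0.24), and both were lower in knockout than in control in both pairs (Fasn at 0.776 and 0.840 of control, Hmgcs1 at 0.861 and 0.729). Scd2 was 1.09-fold and 1.03-fold of control in the 2 pairs. Scd1 did not pass without the block (log2 -0.71, SE 0.27, edgeR adjusted p = 1) and fell with it (log2 -0.73, edgeR adjusted p = 0.0425). The interaction term, which asks whether the Myb effect differs between plasmablasts and GC B cells, called 0 of the 7 genes in edgeR (0 at an unadjusted p under 0.05, 0 by DESeq2 and limma-voom; 3 at an unadjusted p under 0.05 and 0 called with the block), against 1 gene or 0.00762%, and 71 or 0.541% with the block. For Scd2 the term was -0.65 (SE 0.48, 95% interval -1.71 to 0.42, edgeR adjusted p = 1.00), so a different Myb effect in the 2 cell types was not shown.

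In Moz knockout against control GC B cells 0 of the 7 genes passed edgeR's test (0 at an unadjusted p under 0.05, and 0 by DESeq2 and limma-voom), as did 0% of all genes (315 at an unadjusted p under 0.05, 11 called by DESeq2 and 0 by limma-voom). With the block 39 genes or 0.297% were called and again 0 members. Scd2 had 94.6 and 169 CPM in knockout against 93.1 and 104 in control pools, a ratio of 1.02 in pair 1 and 1.63 in pair 2. Its log2 fold change was 0.42 (SE 0.34, edgeR adjusted p = 1), and -0.03 without Moz knockout pool 2, so the difference rests on that library. Srebf2 had 189 and 295 CPM against 209 and 235, and Hmgcs1 had 74.6 and 112 against 95.1 and 114, and the groups overlapped for both. Srebf1 (72.3 and 83.9 against 72.1 and 80.8), Insig1 (38.3 and 47.8 against 41.2 and 44.4), Sqle (46.2 and 66.7 against 53.4 and 68.4) and Fasn (77.3 and 122 against 70.9 and 106) overlapped with their controls too.

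The wider lists gave 0 calls by edgeR in each of the 3 knockout comparisons without the block. The median log2 fold change of the 21 sterol synthesis enzymes was 0.068 in Myb GC B cells, 0.10 in Myb plasmablasts and -0.047 in Moz GC B cells. The 17 tested fatty acid genes had medians of 0.036, 0.050 and 0.16 in the same order. In Moz GC B cells 9 of the 10 LXR, efflux and esterification genes had a positive estimate, with a median of 0.46, and 0 passed the test. Beside them, the myeloid markers summed to 28.9 and 26.4 CPM in knockout against 15.0 and 22.7 in control pools, and the plasma cell markers to 5965 and 7128 against 4589 and 4835. The GC B cell markers were lower, at 975 and 1086 against 1252 and 1290. The part of these cells in the estimates was not tested.

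**Figure D3:**
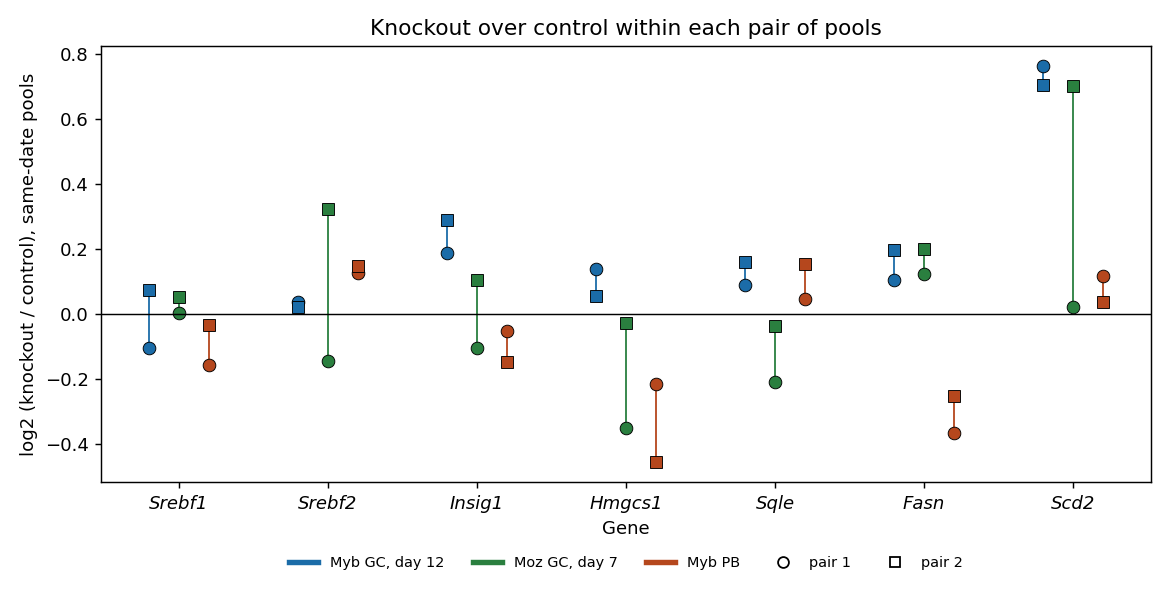
Log2 ratio of knockout over control TMM-scaled CPM (vertical axis) within each pair of same-date pools for the 7 genes (horizontal axis), joined by a line for the 2 pairs of a comparison. Circles are pair 1 and squares pair 2. Scd2 in Myb GC B cells lies at 0.77 and 0.71, both pairs together and above all other genes, while in Moz GC B cells its pairs lie at 0.02 and 0.70.

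Between the 2 control groups of GC B cells, day 7 of the Moz experiment and day 12 of the Myb experiment, 0 of the 7 genes passed in edgeR (0 at an unadjusted p under 0.05, and 0 by DESeq2 and limma-voom), against 181 genes or 1.38%. Day, cre and experiment cannot be told apart here. Fasn had 70.9 and 106 CPM on day 7 and 135 and 115 on day 12 (log2 -0.49, SE 0.45, edgeR adjusted p = 1). With the pool number as a block it was lower on day 7 (log2 -0.52, edgeR adjusted p = 0.0131, 0.0131 to 1 over all settings), where 719 genes or 5.48% were called (1.42% lower). These pools share no dates between the 2 experiments. The remaining members lay between -0.27 (Srebf2, SE 0.23) and 0.12 (Scd2, SE 0.34).

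In both plasmablast groups the 2 pools differed most for Fasn and Scd2. There Fasn was 2.55 times as high in pool 1 as in pool 2 of the control and 2.36 times as high in the knockout, and Scd2 1.68 and 1.77 times. Hmgcs1 (0.996 and 1.18) and Sqle (1.04 and 0.965) barely differed. Across all genes the ratio between pools moved with the length of the counted exons. In control plasmablasts the median log2 ratio of pool 1 to pool 2 was -0.47 for 1409 genes under 1000 bases and 0.60 for 318 genes of 9000 bases or more, and in knockout plasmablasts -0.55 and 0.60. Fasn is counted over 9938 bases and Scd2 over 5453, and the median ratio was 1.52 in each plasmablast group for the longest genes and 1.10 and 1.12 for those of 3000 to under 6000 bases. In Moz knockout GC B cells the slope was opposite, with 0.29 for the shortest and -0.23 for the longest genes, and Scd2 was 0.559 times as high in pool 1 as in pool 2. Other groups differed. In Moz control GC B cells Fasn had a ratio of 0.667, against a median of 1.13 for the longest genes. In Myb control and knockout GC B cells Scd2 had 0.844 and 0.879, against 1.09 and 1.11 for its length class. Fasn had 1.18 and 1.10 there, against 1.44 and 1.53 for the longest genes. Between the groups compared, the median log2 fold change of the shortest and of the longest genes was -0.55 and 0.11 for control plasmablasts against GC B cells and -0.53 and -0.04 for the knockout ones. Between knockout and control it was 0.04 and -0.04 in Myb GC B cells, 0.099 and -0.18 in Myb plasmablasts and -0.16 and 0.090 in Moz GC B cells. The 8 myeloid markers also went with the plasmablast pools, at 91.1 and 82.1 CPM in the first pools and 45.8 and 40.7 in the second. So did the Y-linked gene Ddx3y, at 43.1 (control) and 41.6 (knockout) unscaled CPM in the first plasmablast pools and 12.2 and 4.85 in the second. The part of gene length, date, sex of the mice or myeloid cells in the Fasn and Scd2 values was not tested.

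**Figure D4:**
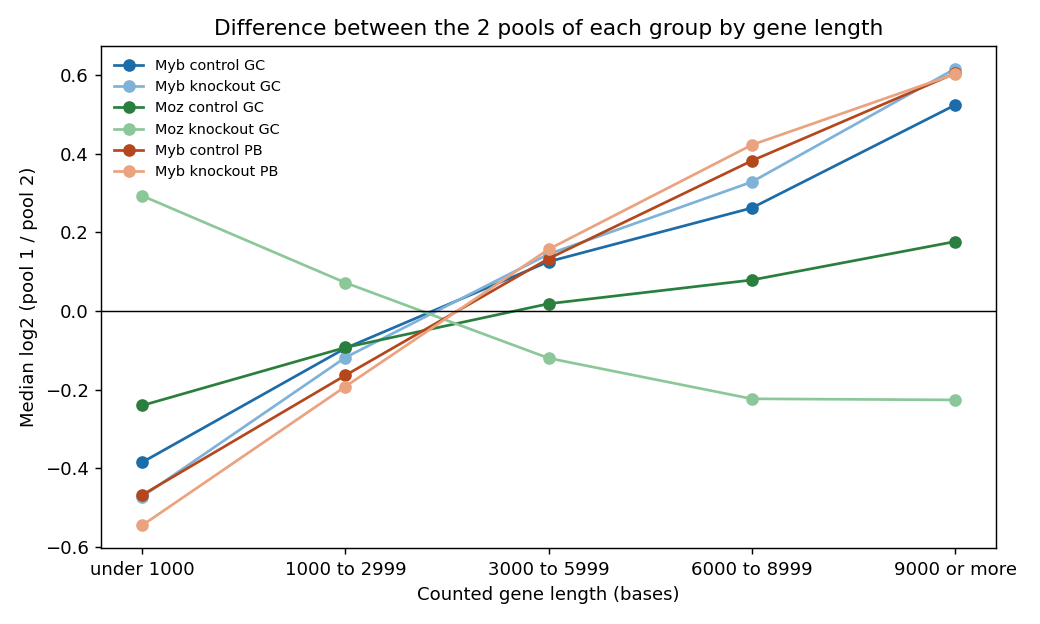
Median log2 ratio of pool 1 to pool 2 (vertical axis) over 12881 tested genes outside the immunoglobulin loci, by the counted length of the gene in bases (horizontal axis), 1 line per group. In 5 groups long genes are higher in pool 1, up to 0.62, and in Moz knockout GC B cells they are lower, at -0.23.

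Divided by length, as RPKM (scaled CPM per kilobase of counted exon), the order of the 7 genes changed between the cell types. In control GC B cells Srebf2 was highest at 58.6 ± 2.57 RPKM (SD, n = 2), above Hmgcs1 at 32.5 ± 4.55. Sqle (26.5 ± 4.59) and Srebf1 (20.7 ± 3.72) followed, and Insig1 (17.0 ± 3.04), Scd2 (16.7 ± 2.00) and Fasn (12.6 ± 1.44) were lowest, with neighbours in the order from Hmgcs1 down to Scd2 within each other's spread. In control plasmablasts Scd2 (38.3 ± 13.7) and Srebf2 (33.4 ± 3.63) led and lay within each other's spread, followed by Insig1 (25.7 ± 1.05) and Srebf1 (20.1 ± 2.15). Fasn (9.94 ± 6.14), Sqle (8.34 ± 0.228) and Hmgcs1 (8.28 ± 0.0242) were lowest and did not differ beyond their spread. Srebf2 thus stayed above Srebf1 in every group, at 48.6 ± 4.06 against 17.8 ± 1.44 RPKM in Moz control and 36.8 ± 3.61 against 18.7 ± 0.867 in knockout plasmablasts.

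The genes whose levels over the 12 libraries most resembled those of each member were found by the root mean square difference of log2 CPM after centring each gene on its own mean, among 9026 genes. For Sqle the nearest was Cyp51, which encodes lanosterol demethylase of the same pathway, at 0.103, followed by Cse1l (0.109) and Zc3hc1 (0.125). For Hmgcs1 the nearest were Plk4 (0.148), Msh6 (0.153) and Coro1c (0.156), and Sqle lay at 0.338, with 309 genes closer. Srebf2 was nearest to Kctd10 (0.0989), Exoc2 and Ikzf3, Insig1 to Oxsm (0.101), Isca1 and Nploc4, and Srebf1 to Rnf19a (0.0906), Lins1 and Zranb3. Fasn was nearest to Cnot1 (0.102), Prpf8 (0.205) and Gatad2b, and Scd2 to Ahcyl2 (0.203) and Rp2. Between Srebf1 and Srebf2 the difference was 0.347, with 2745 genes closer. These likenesses are descriptions over 12 libraries that share 2 cell types and their pools.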

How the data were processed

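RNA of 12 pools of sorted B cells was sequenced, 2 pools in each of 6 groups. The values are whole-number read counts per gene, deposited by the authors. The submitters' processing notes name featureCounts and the mm10 build, with aligner, strand setting and versions not given in the sources used here. Both the series table and the sample files held the same counts (0 genes differed). Gene symbols, coordinates and upstream sequences come from RefSeq GRCm38.p6, which named 25275 of 27179 gene IDs (1904 unmatched).

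Counts were fitted in R 4.3.3 with edgeR 4.0.16 (TMM scaling, filterByExpr with a minimum count of 10 and total of 15, robust quasi-likelihood F test, two-sided, 13131 genes, all 12 libraries, 6 residual degrees of freedom), with Benjamini-Hochberg adjusted p under 0.05 as the limit, for 7 comparisons. Replicates are pools, so p-values measure the spread between pools. Depth was 8285934 to 24801297 counts, and pools of a group differed beyond counting noise in every group. RPKM values divide the scaled CPM by the counted length.

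Knockout and control pools of the same number share experiment dates in the labels, so the pool number was fitted as a block in an alternative (3 residual degrees of freedom). Over genes, their deviations from the group means correlated at 0.600 (Myb GC), 0.453 (Myb plasmablasts) and 0.361 (Moz GC). Such correlations can hold any trend that the pools share, and do not show that the date is its source. In Moz the pools were not alike in all respects. For genes of 9000 bases or more the median log2 ratio of pool 1 to pool 2 was 0.18 in control and -0.23 in knockout. Other alternatives were DESeq2 1.42.0, its size factors, limma-voom (limma 3.58.1), no filter, immunoglobulin genes left out, the compared groups alone and each pool left out. Scaling by library totals alone was added after seeing the data. The code was tested on simulated data. The 7 genes and the lists were chosen with earlier results of these data known. From each list the text names, in each plasmablast comparison, the 5 genes with the largest change in each direction among those past the limit, and the 3 genes most like each member. Other genes were named after their values were seen. Some genes that the rule chose are not reported here.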

Additional observations from a re-analysis of the deposited data

How the results depend on the processing

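Over 7 comparisons and 7 genes, 510 alternative values kept the direction and the side of the limit, 11 gained the call, 12 lost it and 48 changed sign, of which those not in this paragraph came with a pool left out. Srebf1 between plasmablasts and GC B cells of control mice went from -0.0442 to 0.0407 with DESeq2, 0.0404 with its size factors, 0.0607 with immunoglobulin genes left out and 0.0573 with the compared groups alone. With library totals alone (chosen after seeing the data) Insig1 was at -1.28 and -1.79 and Scd2 at -0.66 and -1.49 in control and knockout mice, 10985 and 11278 genes were called, and 7 members were called in knockout mice.

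The replicate block called 318 genes and 1 member (Scd2) in Myb GC B cells, 76 genes in Myb plasmablasts, 39 for Moz, 719 genes and 1 member (Fasn) for day 7 against day 12, 71 for the interaction and 5 members in knockout plasmablasts against GC B cells, and Fasn in control mice. It changed no other call of a member. In the order Myb GC B cells, Myb plasmablasts, Moz, day 7 against day 12 and interaction, DESeq2 called 161, 50, 11, 358 and 45 genes and no filter called 320, 104, 55, 501 and 136. Called with the compared groups alone were 0, 0, 104 and 0 genes (Myb GC B cells, Myb plasmablasts, day 7 against day 12, interaction), with immunoglobulin genes left out 22, 0 and 105 (the first 3 of these), and with limma-voom 10, 10 and 0 (Myb GC B cells, Myb plasmablasts, interaction). The cause of these differences was not tested.

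With each pool left out in turn, counts of genes ran from 0 to 39 (Myb GC B cells), 0 to 2 (Myb plasmablasts), 0 to 3 (Moz), 19 to 105 (day 7 against day 12) and 0 to 3 (interaction), and 3 to 5 members were called in control plasmablasts against GC B cells. The log2 values that changed sign ran in Myb GC B cells from -0.21 to 0.17 (Srebf1), -0.0159 to 0.0688 (Srebf2), -0.0090 to 0.47 (Insig1), -0.0432 to 0.23 (Hmgcs1) and -0.10 to 0.33 (Sqle), and in Myb plasmablasts from -0.19 to 0.0190 (Srebf1), -1.05 to 0.49 (Fasn) and -0.35 to 0.51 (Scd2). For Moz they ran from -0.0538 to 0.13 (Srebf1), -0.21 to 0.41 (Srebf2), -0.13 to 0.16 (Insig1), -0.46 to 0.10 (Hmgcs1), -0.37 to 0.13 (Sqle), -0.17 to 0.49 (Fasn) and -0.0326 to 0.78 (Scd2). For day 7 against day 12 they ran from -0.24 to 0.11 (Insig1) and -0.16 to 0.11 (Hmgcs1), for the interaction from -0.27 to 0.12 (Srebf1), -0.23 to 0.20 (Sqle) and -1.19 to 0.35 (Fasn), and for control plasmablasts against GC B cells from -0.24 to 0.14 (Srebf1) and -1.18 to 0.16 (Fasn). A group left with 1 pool was assumed to vary like the others.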
